A study of Saccharomyces cerevisiae SK1 with 6 samples.

Results

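The genes described here encode the yeast m6A methyltransferase complex and its reader. They are IME4 (YGL192W), KAR4 (YCL055W), MUM2 (YBR057C), VIR1 (YGL036W), SLZ1 (YNL196C) and PHO92 (YDR374C). Members were taken by systematic name and not by a rule on their counts, though earlier results of these data were known. All 6 were found among the 7071 features listed in each library. PolyA(+) RNA was sequenced directly on nanopores, so that each read is 1 native RNA molecule and not an amplified copy. The tested strain, ime4∆ (SAy966), lacks both NDT80 and IME4, and its control, called wild-type (SAy841), lacks NDT80 alone. Both are SK1 strains, SK1 being a fast-sporulating yeast background, and both were collected after 5 h in SPO, an acetate medium that induces meiosis. There were 3 independent cultures of each strain, each run on a flow cell of its own, and each genotype was represented by 1 strain. Neither strain carries NDT80, the transcription factor for the middle sporulation genes, so all comparisons are between cells without this factor. The comparison asks whether transcripts of the partners and of the reader differ in level when the enzyme gene is absent.

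The methyltransferase complex transfers a methyl group to adenosines in mRNA, and in yeast it acts during meiosis. Ime4 is the catalytic subunit, Kar4 its METTL14-like partner, Mum2 and Vir1 the counterparts of the metazoan scaffold proteins WTAP and Virilizer, and Slz1 an accessory subunit that is produced in meiosis. Pho92 is the YTH-domain protein that binds the methylated base. Early meiotic genes are repressed in growing cells by Ume6, which binds the URS1 element in their promoters, and are induced through the same element in starved diploid cells.

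Stretches of 4 member promoters are shown because they hold the core of URS1, a string of letters also found in promoters of the listed prophase genes. They were read from the R64 reference genome of RefSeq, which is strain S288C and not SK1, on the strand of the gene, 5′ to 3′, with the core in capitals. The window searched was 250 bases before to 50 bases after the start of the reading frame, for the letters GGCGGC on either strand. A match on the opposite strand reads GCCGCC.
IME4: tatgcgtctttaGGCGGCttttggcgtaca
VIR1: tgcttggatctcGGCGGCagttttttctgt
SLZ1: acaatatgaataGCCGCCgaaattatgccc
PHO92: acgatgtacctcGGCGGCtaatctttttgg
The core lies 232 to 227 bases before the reading frame of IME4, 111 to 106 before that of VIR1, 135 to 130 before that of SLZ1 and 229 to 224 before that of PHO92. These letters were not in the windows of KAR4 and MUM2. Of all 6020 protein-coding genes of R64, 308 held the core in the same window (5.12%), and of the 8 listed meiotic prophase genes 5 held it. ZIP1, which encodes a synaptonemal complex protein, has it 20 to 15 bases before its reading frame. A match is a string of letters and no measure of Ume6 binding.

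Levels come first, because the deposited feature names may be displaced from their transcripts over part of the genome. Counts on features lay between 177675 and 341692 in the ime4∆ libraries and between 182876 and 372270 in the wild-type libraries, and CPM values put all libraries on the same scale by depth and TMM factor. At these depths 3 counts corresponded to 8.45 to 15.8 CPM in ime4∆ and to 8.67 to 16.8 CPM in wild type, a floor that covers counting error only. Ribosomal protein genes, which are among the most highly transcribed genes of growing yeast, served as landmarks. How abundant their transcripts are after 5 h in SPO was not tested. Their features did not carry the counts of abundant transcripts: 137 were found, 56 lay above the 50th percentile of mean CPM over all listed features, 4 lay above the 90th, and 58 had at most 10 counts in the 6 libraries together. The median ribosomal protein feature had 19 counts over the 6 libraries, whereas the median listed feature had 39. The same holds on the chromosomes of the members. At most 10 counts were found at 6 of 14 ribosomal protein features on chromosome VII (IME4, VIR1), 7 of 10 on II (MUM2), 4 of 7 on XIV (SLZ1) and 8 of 19 on IV (PHO92). The single one on III (KAR4), RPS14A, had 161, but lies 150 kb from KAR4 in R64. The features beside KAR4, PEX34 and SPB1, had 13 and 6 counts over all libraries. Those beside MUM2 (MNC1, UBP14) had 0 and 168, beside VIR1 (PNC1, MIG1) 78 and 116, and beside PHO92 (FRQ1, WIP1) 0 and 564. Every value below is therefore that of the feature so named, and whether it holds the reads of the named gene is not known.

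The feature named IME4, the deleted gene, was near 0 in both strains. It had 0, 0 and 1 counts in ime4∆ replicates 1, 2 and 3, against 0, 1 and 1 counts in wild-type replicates 1, 2 and 3. This was 0.939 ± 1.63 CPM in ime4∆ and 2.99 ± 2.82 CPM in wild type (SD, n = 3 each), and every library lay below its own level of 3 counts. The strains overlapped (two-sided exact permutation test, p = 0.4, where the smallest p that 3 against 3 libraries allow is 0.1). No fold is given, since both strains were under the floor, and the feature therefore provides no check of the strain labels. Its neighbours YGL193C and COX13, a subunit of cytochrome c oxidase, had 0 and 237 counts over all libraries.

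**Figure D1:**
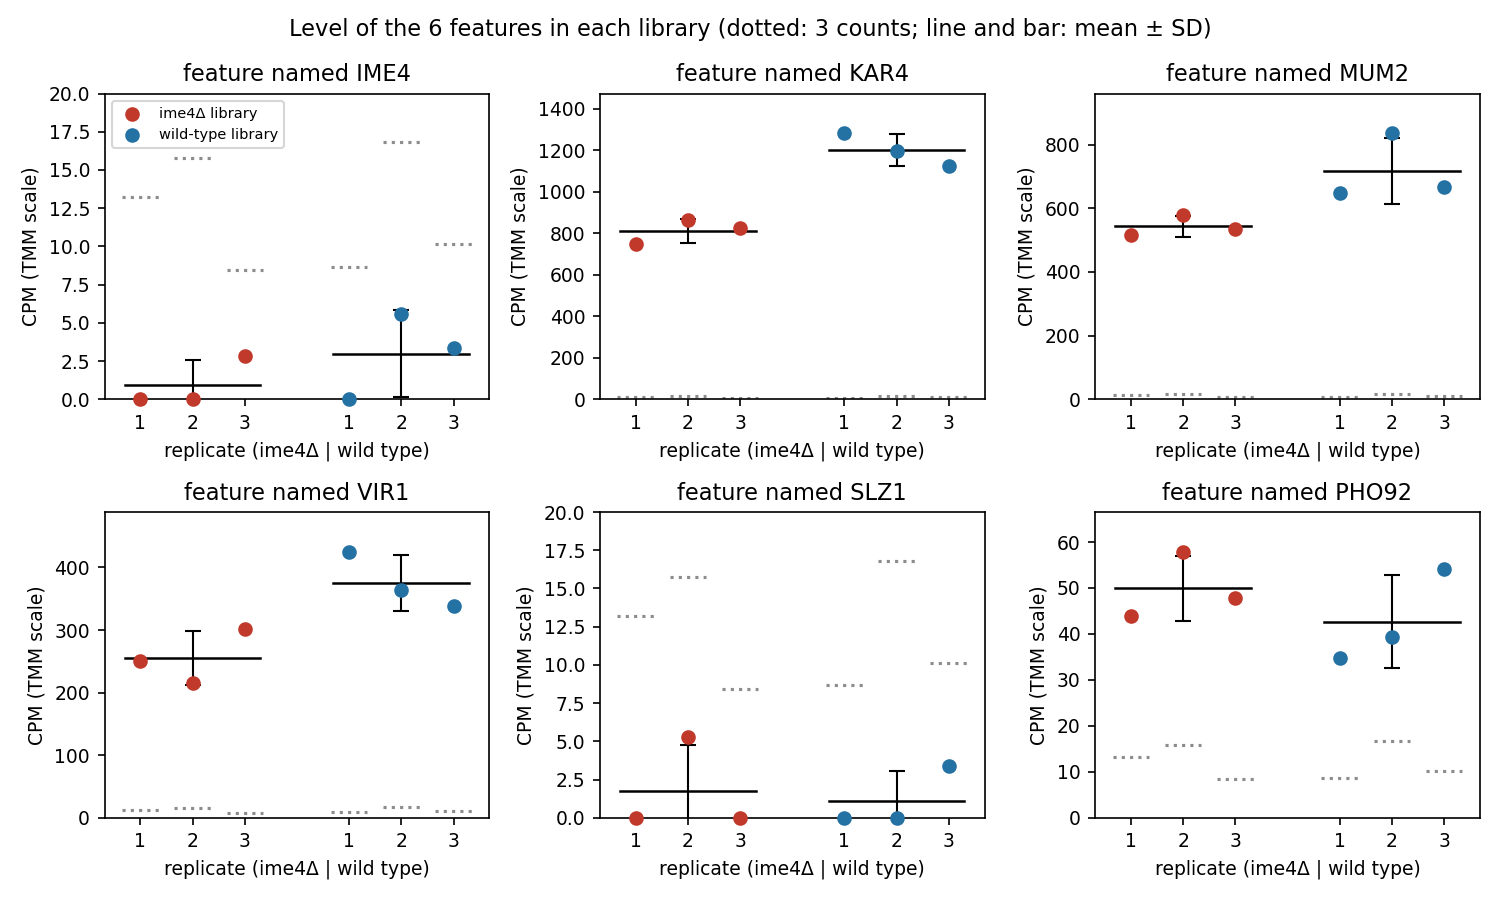
CPM on edgeR's TMM scale (vertical axis) of the 6 features in each library, ime4∆ replicates in red to the left of wild-type replicates in blue. Lines and bars are the mean ± SD of 3 libraries (cut at 0) and dotted lines mark 3 counts. On this scale KAR4, MUM2 and VIR1 are lower in every ime4∆ library than in any wild-type library, as were 19.3% of all tested features. By library size alone MUM2 overlaps. IME4 and SLZ1 stay under the dotted lines in all libraries, and the strains overlap for PHO92.

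KAR4, MUM2 and VIR1 carried the counts of the group. On the TMM scale each was lower in all 3 ime4∆ libraries than in any wild-type library, as were 19.3% of all tested features. The feature named KAR4 had 170, 164 and 293 counts in ime4∆ replicates 1, 2 and 3 and 443, 213 and 333 counts in wild-type replicates 1, 2 and 3. Scaled by library size and TMM factor this was 748, 863 and 825 CPM in ime4∆, against 1281, 1194 and 1125 CPM in wild type. The strains did not overlap, and the 812 ± 58.3 CPM of ime4∆ lay below the 1199.6 ± 78.2 CPM of wild type by more than the spread of either strain (SD, n = 3 each). The log2 fold change was -0.56 (standard error 0.14, 95% interval -0.86 to -0.26), with an adjusted p of 0.00845 (quasi-likelihood test of edgeR, Benjamini-Hochberg over all 3231 tested features). Besides its part in the complex, Kar4 is known as a transcription factor of mating and karyogamy genes. In polyA(+) RNA of a whole culture, fewer cells with a transcript and less of it per cell cannot be told apart.

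MUM2 was lower by less. Its feature had 117, 110 and 190 counts in ime4∆ replicates 1, 2 and 3 and 224, 149 and 197 counts in wild-type replicates 1, 2 and 3, or 515, 579 and 535 CPM in ime4∆ and 648, 835 and 665 CPM in wild type. The strains did not overlap on the TMM scale, but the lowest wild-type library was closer to ime4∆ than to the highest wild-type one. By library size alone they overlapped. There ime4∆ replicate 2, with 110 of 177675 counts, lay above wild-type replicate 1, with 224 of 372270. With means of 543 ± 32.5 CPM in ime4∆ and 716 ± 104 CPM in wild type (SD, n = 3 each), the log2 fold change was -0.39 (standard error 0.15, 95% interval -0.71 to -0.069) and its adjusted p of 0.0734 from edgeR did not pass 0.05.

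VIR1, the Virilizer-like scaffold gene, had 57, 41 and 107 counts in ime4∆ replicates 1, 2 and 3 and 147, 65 and 100 counts in wild-type replicates 1, 2 and 3. This was 251, 216 and 301 CPM in ime4∆, against 425, 364 and 338 CPM in wild type. The strains did not overlap, with ime4∆ replicate 3 and wild-type replicate 3 the closest pair. The mean was 256 ± 43.1 CPM in ime4∆ and 376 ± 44.7 CPM in wild type (SD, n = 3 each), and the log2 fold change was -0.53 (standard error 0.17, 95% interval -0.89 to -0.18, adjusted p = 0.0300 from edgeR). This call held without ime4∆ replicate 3 (-0.68, adjusted p = 0.0258) or wild-type replicate 3 (-0.61, adjusted p = 0.0279), and was lost without any other library. The adjusted p was 0.0592 without ime4∆ replicate 1, 0.118 without ime4∆ replicate 2, 0.124 without wild-type replicate 1 and 0.0625 without wild-type replicate 2. The log2 fold changes there were -0.51, -0.42, -0.42 and -0.56. The call was also lost when counts were scaled by library size alone (log2 fold change -0.43, adjusted p = 0.0663) and with DESeq2 (-0.54, adjusted p = 0.120).

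SLZ1 was at the floor. Its feature had 0, 1 and 0 counts in ime4∆ replicates 1, 2 and 3 and 0, 0 and 1 counts in wild-type replicates 1, 2 and 3, a mean of 1.75 ± 3.04 CPM in ime4∆ and 1.13 ± 1.95 CPM in wild type (SD, n = 3 each). Every library was below its level of 3 counts and the strains overlapped (two-sided exact permutation p = 1), so no difference in SLZ1 was detectable at this depth. Its neighbouring features WHI3, which encodes an RNA-binding protein, and YNL195C had 453 and 510 counts over all libraries. DYN2, a dynein light chain that has been found with the complex, had 0, 2 and 3 counts in ime4∆ and 2, 1 and 2 counts in wild type and was likewise too low to be tested.

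The reader PHO92 had few counts and did not separate the strains. Its feature had 10, 11 and 17 counts in ime4∆ replicates 1, 2 and 3 and 12, 7 and 16 counts in wild-type replicates 1, 2 and 3, or 44.0, 57.9 and 47.9 CPM in ime4∆ and 34.7, 39.2 and 54.0 CPM in wild type. All libraries were above their floor and the strains overlapped. The mean was 49.9 ± 7.14 CPM in ime4∆ and 42.7 ± 10.1 CPM in wild type (SD, n = 3 each). The log2 fold change was 0.21 with a standard error of 0.34 (adjusted p = 0.705 from edgeR), and its 95% interval of -0.51 to 0.92 spans 0 and contains the log2 fold change of MUM2, while those of KAR4 and VIR1 lie just beyond its lower end.

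Of the 6 members, 4 passed the filter on low counts and IME4 and SLZ1 did not. Among the 4, KAR4 and VIR1 passed the test, both lower in ime4∆, and none passed as higher. Over all 3231 tested features 24.3% passed in either direction, 11.9% as lower and 12.3% as higher. On the TMM scale KAR4, MUM2 and VIR1 had no overlap between the strains and were lower in ime4∆, as were 19.3% of all tested features. By library size alone MUM2 overlapped. No tested member was higher in ime4∆ without overlap, as were 19.6% of all tested features. The median log2 fold change of the 4 members was -0.46, whereas that of all tested features was 0.020. Summed over the members, ime4∆ libraries held 1558 to 1720 CPM and wild-type libraries 2188 to 2438 CPM, nearly all of it from KAR4, MUM2 and VIR1.

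**Figure D2:**
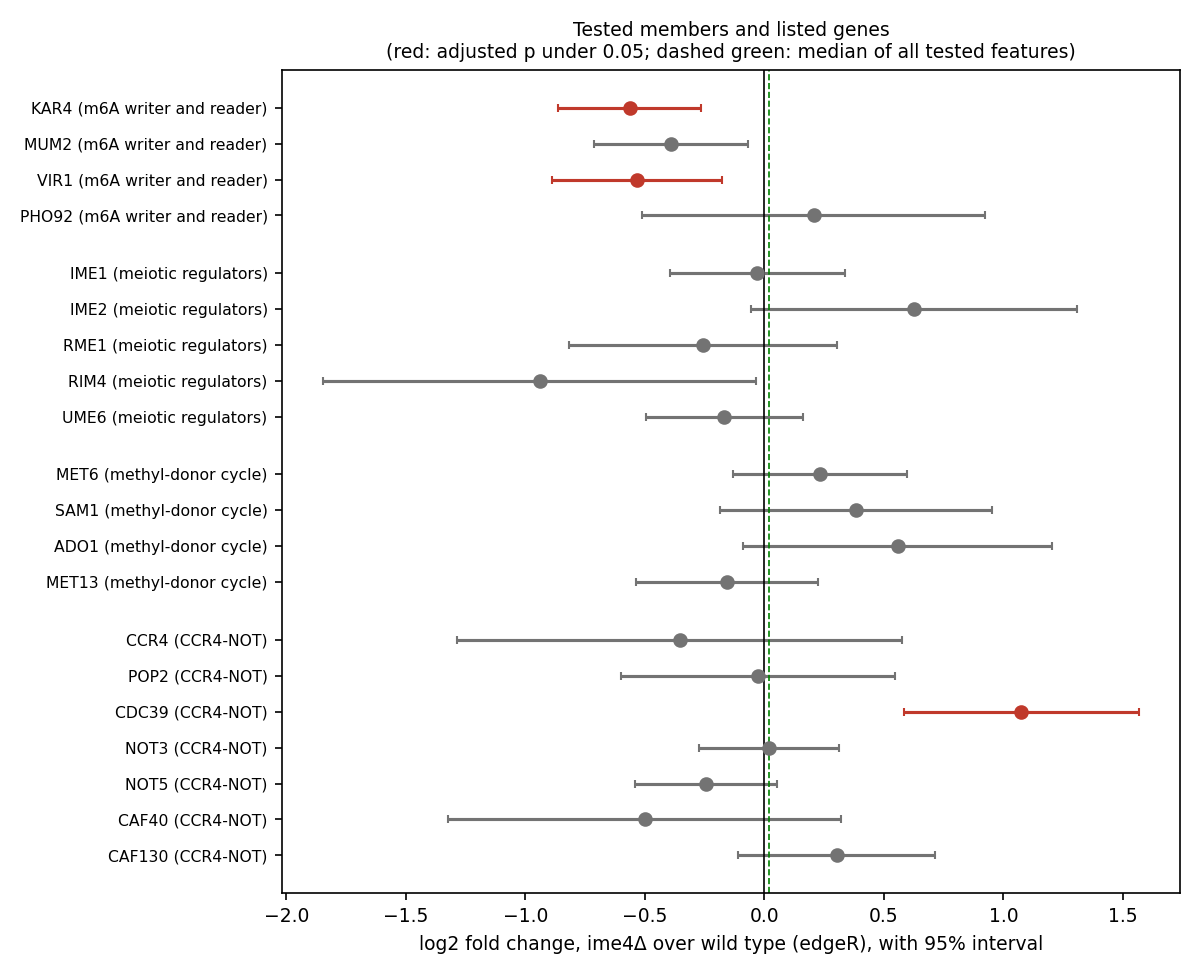
Log2 fold change (horizontal axis, ime4∆ over wild type) and its 95% interval for the 4 tested members and the tested genes of 3 related lists, 1 row each, from edgeR. Red marks an adjusted p under 0.05 (KAR4, VIR1, CDC39) and the dashed line the median of all tested features, 0.020; the intervals of KAR4, MUM2 and VIR1 lie below 0 and that of PHO92 spans it.

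How far the names of the members might be displaced was described by moving the R64 positions of all ribosomal protein genes of a chromosome together, in steps of 250 bases up to 40 kb to either side, and reading the counts of the features at the moved positions. This was chosen after the counts had been seen, it picks the best of many distances, and a moved position can overlap more than 1 feature, so a higher count than at the deposited names had to be found and no test is given. Positive distances run toward higher positions in R64. On chromosome II a move of -13.75 to -13.5 kb gave the highest mean, a geometric mean of 816 counts over 10 ribosomal protein genes, all of which had at least 107. With the deposited names it was 8.18 counts, and the next best distance, 19.25 kb, gave 407. Chromosome II gave no single answer, since over the 6 genes nearest to MUM2 the best distance was -14 to -13.25 kb in counts but -9 kb in counts per kilobase (444, with 395 at 19.25 kb). On chromosome XIV a move of -15 to -14.5 kb gave 567 counts over 7 genes with at least 310 at each, whereas the deposited names gave 22.1 and the next best distance 477. On chromosome IV the answers also differed, since -22.25 kb was best over all 19 genes (546 counts, against 18.1 with the deposited names) and 14.25 to 15 kb over the 6 nearest to PHO92 (1353 counts, against 17.7).

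**Figure D3:**
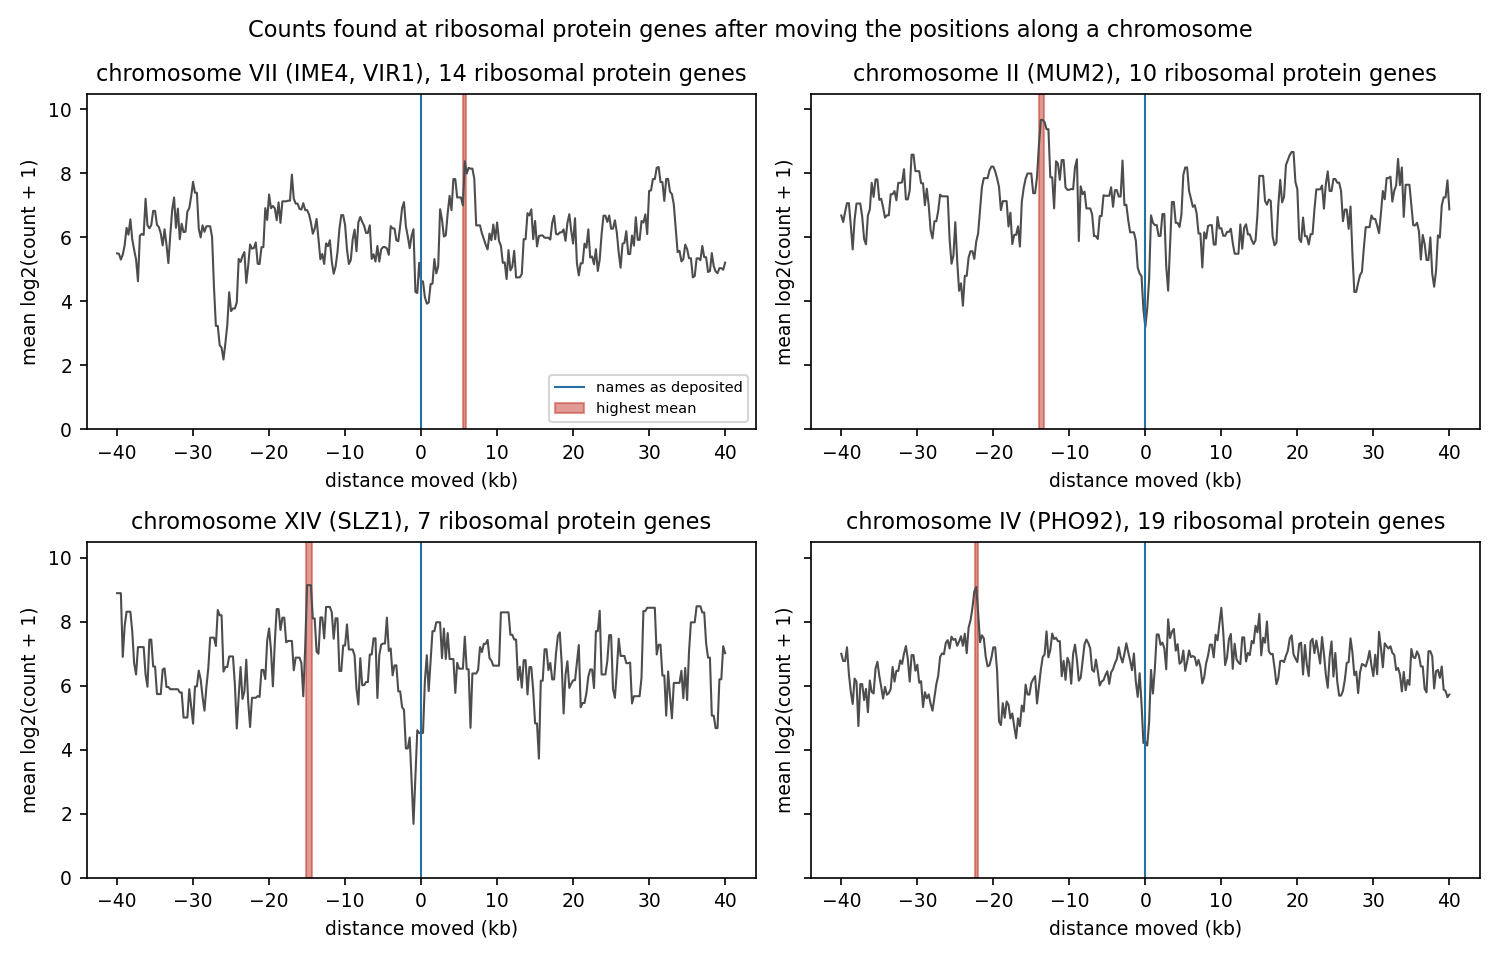
Mean log2(count + 1) found at the ribosomal protein genes of a chromosome (vertical axis) after their positions were moved by the distance on the horizontal axis in kb, 1 panel for each chromosome with several of them. Blue lines mark the deposited names and red bands the distance of the highest mean; on II and IV the curve is near its lowest at 0, and each curve has peaks at several distances.

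Chromosome VII, which holds IME4 and VIR1, was best at 5.75 kb over all 14 ribosomal protein genes (332 counts, with 0 at the lowest of them, against 23.7 with the deposited names), but a distance of 31.25 kb came close with 294. Over the 6 genes nearest to IME4 the best distance was 6.25 kb, with 466 counts, at least 267 at each, and 5.73 with the deposited names. Over the 6 nearest to VIR1 it was 6.25 to 7 kb, with 874 counts, against 32.4 with the deposited names. Chromosome III, with 1 landmark, could not be examined in this way, so nothing of this kind can be said of KAR4.

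The features that the moved positions of the members fall on are given as they were counted. At 5.75 kb the IME4 position covers RPS26A, with 0, 0 and 0 counts in ime4∆ and 2, 0 and 2 in wild type, YGL188C-A, with 0 in all libraries, and part of COX4. COX4 had 11, 13 and 20 counts in ime4∆ and 15, 4 and 11 in wild type, a log2 fold change of 0.65. At 6.25 kb, the best distance over the 6 nearest genes, the position covers all of COX4 and YGL188C-A and 25.8% of RPS26A. By its systematic name YGL188C belongs between RPS26A and COX4, but the R64 table of RefSeq has no entry for it. It had 0 counts in each ime4∆ library and 45, 28 and 58 counts in wild-type replicates 1, 2 and 3, which is 130 to 196 CPM, and no other listed feature combined 10 or more counts per wild-type library with none in any ime4∆ library. YGL188C was singled out for that pattern, so it is no independent check of the labels.

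The position of MUM2 moved by -13.75 kb falls on RFS1, a flavodoxin-like protein gene. RFS1 had 117, 88 and 164 counts in ime4∆ and 275, 135 and 162 counts in wild type, or 515, 463 and 462 CPM in ime4∆ against 795, 757 and 547 CPM in wild type, with no overlap and a log2 fold change of -0.54. At -13.5 kb, the other end of the best band, it also covers a part of YBR053C, which had 30, 26 and 52 counts in ime4∆ and 25, 11 and 20 in wild type, a log2 fold change of 1.03. The position of VIR1 moved by 5.75 kb covers HOP2, a meiotic recombination gene with 13, 5 and 13 counts in ime4∆ and 12, 11 and 6 in wild type, and AGA2, which encodes a mating agglutinin subunit. AGA2 had 45, 38 and 89 counts in ime4∆ and 121, 55 and 75 in wild type, and its log2 fold change was -0.47. The strains did not overlap on the TMM scale, but nearly touched, with 251 CPM in the highest ime4∆ library and 253 CPM in the lowest wild-type library. By library size alone they overlapped. There ime4∆ replicate 3, with 89 of 341692 counts, lay above wild-type replicate 3, with 75 of 297723. At 6.25 to 7 kb, the best band of the 6 genes nearest to VIR1, the VIR1 position also covers part or all of RPL24A. RPL24A had 2, 2 and 3 counts in ime4∆ and 6, 2 and 3 in wild type. The position of SLZ1 moved by -15 kb falls on RIO2, a ribosome-assembly kinase gene that had 0 counts in every library. At -14 kb, the far end of the best band of the 6 nearest genes, it also covers part of RTT106, with 3, 0 and 3 counts in ime4∆ and 6, 1 and 2 in wild type. For PHO92 the move of -22.25 kb leads to 6.30% of SEM1, with 4, 3 and 8 counts in ime4∆ and 1, 1 and 3 in wild type, and that of 14.25 to 15 kb to COI1, with 3, 0 and 3 counts in ime4∆ and 3, 2 and 3 in wild type. At 14.25 kb 61.8% of COI1 was covered, together with 19.4% of YRA1, an mRNA export factor gene, and at 15 kb COI1 alone was covered. YRA1 had 25, 15 and 28 counts in ime4∆ and 9, 6 and 14 in wild type, a log2 fold change of 1.31.

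**Figure D4:**
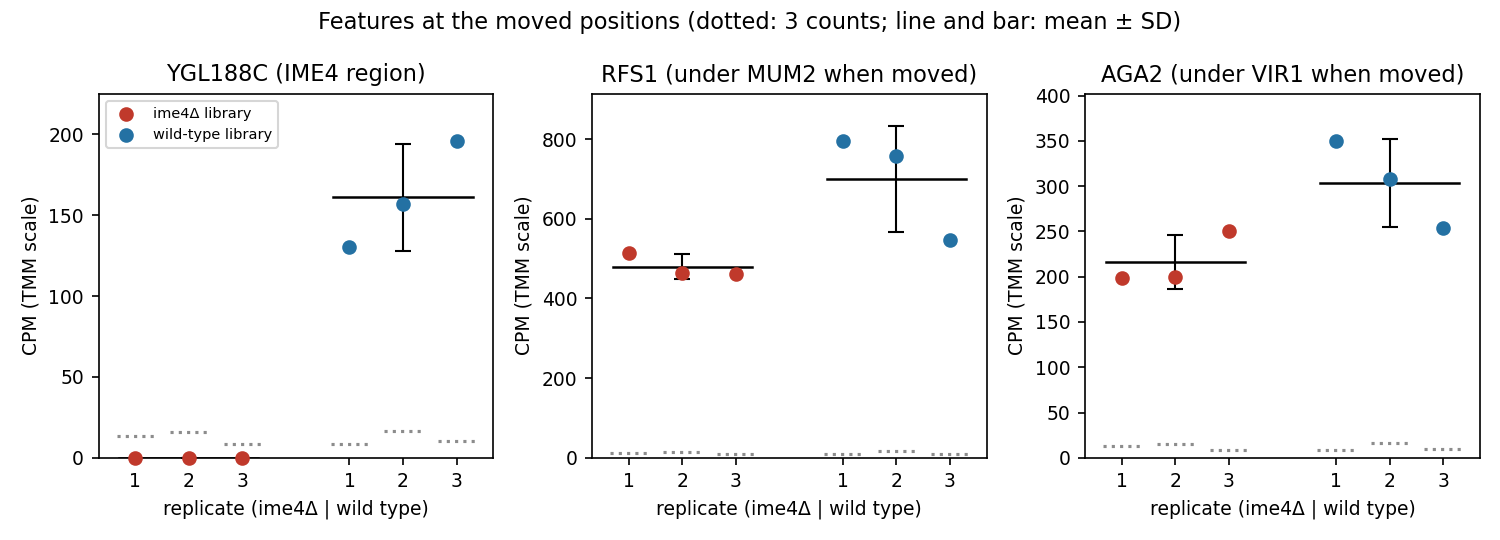
CPM on edgeR's TMM scale (vertical axis) in each library of YGL188C, RFS1 and AGA2, features at or beside the moved positions of IME4, MUM2 and VIR1. Libraries of ime4∆ are red and stand left of the wild-type libraries in blue, lines and bars are the mean ± SD of 3 libraries and dotted lines mark 3 counts. YGL188C is at 0 in all 3 ime4∆ libraries. On this scale RFS1 and AGA2 are lower in ime4∆ with no overlap, as were 19.3% of all tested features. By library size alone AGA2 overlaps. COX4, YBR053C and YRA1, also at moved positions, had log2 fold changes above 0 and are not shown.

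The listed meiotic regulators did not pass the test. All 5 listed meiotic regulators were tested, 0 passed with edgeR or DESeq2 (at an unadjusted p under 0.05 in edgeR, RIM4 alone did), and their median log2 fold change was -0.17. IME1, the master activator of the early meiotic genes, had 57, 53 and 82 counts in ime4∆ and 78, 55 and 74 in wild type, 254 ± 24.0 CPM in ime4∆ and 261 ± 42.5 CPM in wild type (SD, n = 3 each). Its log2 fold change was -0.030 with a 95% interval of -0.40 to 0.34. RME1, the repressor of IME1, had -0.26 (adjusted p = 0.530 from edgeR), UME6, the URS1-binding regulator, -0.17 (adjusted p = 0.478) and IME2, a meiotic kinase, 0.63 (adjusted p = 0.178). RIM4, a translational repressor in meiosis, had -0.94 (adjusted p = 0.124), and there wild-type replicate 1 stood apart with 108 counts, where replicates 2 and 3 had 18 and 26. Without wild-type replicate 1 its log2 fold change was -0.018 (adjusted p = 0.986), and it passed without wild-type replicate 3 (-1.28, adjusted p = 0.0311) and with no filter on low counts (-0.96, adjusted p = 0.00142).

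The cycle that supplies the methyl donor, S-adenosylmethionine, showed no call either. Of its 7 listed genes 4 were tested and 0 passed with edgeR or DESeq2, also 0 at an unadjusted p under 0.05 in edgeR, with a median log2 fold change of 0.31. MET6, methionine synthase, had 0.23, SAM1, an S-adenosylmethionine synthetase, 0.38, ADO1, adenosine kinase, 0.56 (adjusted p = 0.207) and MET13, a methylenetetrahydrofolate reductase, -0.16. ADO1 passed without ime4∆ replicate 1 (0.84, adjusted p = 0.0229). SAM2 had 1 count in all libraries together, and SAH1, which removes the by-product of methylation, had 1, 0 and 1 counts in ime4∆ and 3, 0 and 3 in wild type.

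Of the 9 listed genes of the CCR4-NOT deadenylase complex, with which Pho92 is known to interact, 7 were tested, 1 passed as higher in ime4∆ and none as lower. Over all tested features 12.3% passed as higher and 11.9% as lower. The median log2 fold change of the 7 was -0.027. CDC39, the scaffold subunit, had 68, 45 and 87 counts in ime4∆ and 28, 29 and 42 in wild type, with no overlap in CPM (260 ± 34.0 CPM in ime4∆, 128 ± 42.4 CPM in wild type, SD, n = 3 each). Its log2 fold change was 1.08 (standard error 0.23, adjusted p = 0.00343 from edgeR). The deadenylase gene CCR4 had -0.35 and its partner POP2 -0.027. CDC36 had 0 counts in every library.

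Among markers of the meiotic stage, 4 of 8 listed prophase genes passed as lower in ime4∆, where 11.9% of all tested features did. All 8 listed prophase genes were tested, 0 passed as higher and 4 as lower, and their median log2 fold change was -0.47. Summed over these genes ime4∆ libraries held 3236 to 3790 CPM and wild-type libraries 5717 to 6557 CPM. ZIP1 had 254, 209 and 284 counts in ime4∆ and 964, 442 and 624 in wild type, a log2 fold change of -1.30 (adjusted p = 7.6e-05 from edgeR). HOP1 and SPO11, genes of the meiotic chromosome axis and of the recombination-initiating break, had log2 fold changes of -1.32 and -1.17. REC8, the meiotic cohesin gene, had -0.50 (adjusted p = 0.0211), and it did not pass when ime4∆ replicate 2, ime4∆ replicate 3, wild-type replicate 2 or wild-type replicate 3 was left out (adjusted p 0.0804, 0.0703, 0.116 and 0.0513). The other 4 did not pass, with log2 fold changes of -0.44 for RED1, -0.40 for DMC1, 0.099 for MEK1 and 0.63 for IME2. No prophase gene was at 0. The part of these markers in the values of the members was not tested.

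Of the 5 listed middle sporulation genes, which need NDT80, 4 were tested, with summed levels of 473 to 629 CPM in ime4∆ and 560 to 696 CPM in wild type. SPS4 passed as higher in ime4∆, with 10, 16 and 18 counts in ime4∆ and 7, 5 and 9 in wild type (log2 fold change 1.15, adjusted p = 0.0403 from edgeR). It did not pass with DESeq2 (adjusted p = 0.146), nor without ime4∆ replicate 2, wild-type replicate 1, wild-type replicate 2 or wild-type replicate 3 (adjusted p 0.158, 0.168, 0.0853 and 0.0602). SMK1 was at 0 in all ime4∆ libraries and had 2, 0 and 2 counts in wild type. SPS2 had -0.41 (adjusted p = 0.504), with -1.36 (adjusted p = 0.00283) without ime4∆ replicate 1 and -0.0080 (adjusted p = 0.993) without ime4∆ replicate 3. GAS4 had 20, 11 and 20 counts in ime4∆ and 31, 18 and 42 in wild type, with no overlap in CPM on the TMM scale. By library size alone the strains overlapped, since ime4∆ replicate 1 (20 of 227862 counts) lay above wild-type replicate 1 (31 of 372270). The log2 fold change of GAS4 was -0.73 (adjusted p = 0.0833 from edgeR), and it passed without ime4∆ replicate 1 (-0.97, adjusted p = 0.0446). SPR3 had -0.16. Of the 5 listed haploid mating genes 3 were tested, with summed levels of 409 to 459 CPM in ime4∆ and 745 to 786 CPM in wild type. STE2, the alpha-factor receptor, made up most of that sum and was lower in ime4∆, with 69, 50 and 104 counts in ime4∆ and 238, 115 and 179 in wild type (log2 fold change -1.17, adjusted p = 6.9e-05 from edgeR). The other 2 tested genes did not pass. MF(ALPHA)1, a gene of the alpha-factor pheromone, had 16, 12 and 29 counts in ime4∆ and 18, 9 and 13 in wild type, with no overlap in CPM and a log2 fold change of 0.58 (adjusted p = 0.174), and MFA1 had -0.26. MFA2, which was too low to be tested, had 3, 4 and 4 counts in ime4∆ and 1, 0 and 1 in wild type. STE3, the a-factor receptor, had 1 count in each ime4∆ library and 0 in each wild-type library. The part of these markers in the values of the members was not tested either.

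For each tested member, the features most like it were those whose log2 CPM, centred on its mean over the 6 libraries, differed least from that of the member by root mean square. KAR4 was followed most closely by RGT1 (0.06), PCS60 (0.06) and SFP1 (0.07), where the median feature differed by 0.40 and KAR4 itself varied by 0.29 around its mean. All 3 were lower in ime4∆, with log2 fold changes of -0.49, -0.48 and -0.53. Features picked in this way had to have a fold change near that of the member. MUM2 was followed by BBC1 (0.06), the serine tRNA feature tS(UGA)E (0.06) and MAD3 (0.07), and VIR1 by RSM25 (0.06), SPN1 (0.06) and MYO5 (0.09). PHO92 was followed by THI3 (0.07), FOL1 (0.08) and CAF130 (0.09), the last a subunit of CCR4-NOT with a log2 fold change of 0.30. These are descriptions over 6 libraries of 2 strains.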

How the data were processed

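Direct RNA reads of 3 ime4∆ and 3 wild-type cultures were base-called with Albacore and trimmed with NanoFilt, as the study's methods state. The submitters' processing notes name minimap2 and HTSeq. The genome build and annotation were not given in the sources used here. The authors deposited whole-number read counts per feature for each library, without normalization. Between 72.1 and 75.4% of the reads of a library were on features. The remainder, in 5 summary lines that name no gene, was left out, including 12.9 to 17.9% ambiguous reads. Such reads can be missing from overlapping genes, and the use of strand in counting was not given in the sources used here.

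Scaling and testing used R 4.3.3 and edgeR 4.0.16 (TMM, filterByExpr, quasi-likelihood test, Benjamini-Hochberg over 3231 features, threshold 0.05), which was tested on simulated data. Log2 fold changes are ime4∆ over wild type. DESeq2 1.42.0 was an alternative. Other alternatives were RLE factors, library size alone, no filter, at least 10 counts in every library, a replicate block and leaving out each library. Moving names was added after seeing the data.

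Named genes are the members, listed genes, the 3 features most like each tested member, nearest neighbours and YGL188C. The features at moved positions were named after their values were seen. Members and lists were chosen with earlier results of these data known. R64 gave names (6006 of 7071 matched), distances and sequences.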

Additional observations from a re-analysis of the deposited data

How the results depend on the processing

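KAR4 passed under all 12 alternatives (log2 fold change -0.61 to -0.46, adjusted p 0.000119 to 0.0345), and none of the 4 tested members changed sign. VIR1 did not pass with library size alone (-0.43) or DESeq2 (-0.54), and lay between -0.68 and -0.42 without single libraries. MUM2 passed only with the replicate block (-0.39, adjusted p = 0.0196), and PHO92 lay between 0.03 and 0.43 and never passed. It could not be fitted at 10 counts in every library. The number of members that passed was 1 with library size alone and with DESeq2, 2 with RLE factors and with either filter, 3 with the block, and 1 to 2 without single libraries. DESeq2 called 504 features (244 higher) where edgeR called 784 (399 higher). Library size alone gave 493 higher and 305 lower in place of 399 and 385, and moved the median of all features to 0.12 in place of 0.020. Without single libraries 554 to 782 passed.

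Same-numbered libraries of the strains had correlated deviations over 2551 features (r = 0.256, 0.0840 and 0.193 for replicates 1, 2 and 3). Each was the highest for its library. That of replicate 2 was low, and no source says what a shared number stands for, so the main fit did not treat the numbers as pairs. The replicate block raised the features that passed to 1028. RIM4 (log2 fold change -0.79, adjusted p = 0.00809 from edgeR) and GAS4 (-0.74, adjusted p = 0.0439) also passed with the block.

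Of 350 fits of 30 listed genes, 320 kept sign and call, 9 lost the call, 7 gained it and 14 changed sign, none of these past the threshold. With library size alone IME1 became 0.069 and POP2 0.070, and POP2 became 0.0078 at 10 counts in every library. Without single libraries IME1 ranged from -0.14 to 0.077, POP2 from -0.22 to 0.070, CCR4 from -0.71 to 0.0025, NOT3 from -0.0045 to 0.054, MEK1 from -0.030 to 0.26 and MFA1 from -0.58 to 0.25. The cause was not tested in any of these cases. The features named IME4, SLZ1 and DYN2 had too few counts to be tested.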
